A study of Mus musculus with 6 samples.

Results

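MHC class II genes encode the machinery with which antigen-presenting cells show peptides from engulfed protein to CD4+ T cells. The members described here are 10 genes chosen by symbol, and all 10 were found among the 18849 genes of the expression table: the classical chains H2-Aa, H2-Ab1 and H2-Eb1, the invariant chain Cd74, the peptide editors H2-DMa, H2-DMb1 and H2-DMb2, the editor's inhibitors H2-Oa and H2-Ob, and the transactivator Ciita. Whole-kidney RNA was sequenced in 6 libraries, all from males of the C57BL/6 strain. The mice were 8 weeks old and had 14 days of unilateral ureteral obstruction (UUO), in which a tied ureter scars the kidney. The 3 floxed libraries came from c-Ablflox/flox mice, whose Abl1 gene is flanked by loxP sites and intact (their genotype label reads WT). The 3 knockout libraries came from c-AblEpi-cKO mice, which carry the same floxed alleles and Ksp-Cre, a recombinase driven by the promoter of the tubule cadherin Cdh16, so that leukocytes and other cells without Cre keep Abl1 (their genotype label reads c-Abl knockdown). Both groups were obstructed, and unobstructed kidneys were not analysed here. Whether the replicates are different animals is not stated in the labels. The p-values therefore describe only the spread among these samples, which may be technical.

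Class II molecules are made mainly by dendritic cells, B cells and macrophages, and injured tubule cells can be induced to make them by interferon-gamma. An alpha and a beta chain pair in the endoplasmic reticulum around the invariant chain, which blocks the peptide groove and steers the complex to endosomes. There proteases such as cathepsin S cut the invariant chain down, H2-DM exchanges its last fragment for peptide, and H2-O, found chiefly in B cells, restrains H2-DM. Ciita is the master switch of the family: it does not bind DNA itself but docks on a complex of RFX, CREB and NF-Y factors that sits on paired X and Y boxes upstream of each class II gene.

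The 8 H2 genes lie in 1 cluster on chromosome 17, where H2-DMa, H2-DMb2 and H2-DMb1 are neighbours, and H2-Ob, H2-Ab1, H2-Aa and H2-Eb1 follow one another without another coding gene between them (gene order in the RefSeq table of GRCm38.p6). RefSeq promoter windows, 250 bases before to 50 after a gene start, were found for 7 members in 8 windows. Stretches of 6 of them are shown because they hold letters matching the Y box core, and 4 of them the X box core as well, close to the gene start. Each runs from base -120 to -31 of the gene start, 5′ to 3′ on the gene strand, with the X box core (GCAAC) and the Y box (ATTGG, or CTGATTGG where the longer form is present) in capitals:

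H2-Aa (chr17:34287854-34287943, minus strand, GRCm38.p6): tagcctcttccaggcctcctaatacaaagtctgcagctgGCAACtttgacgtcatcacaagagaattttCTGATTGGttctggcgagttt
H2-Eb1 (chr17:34305747-34305836, plus strand, GRCm38.p6): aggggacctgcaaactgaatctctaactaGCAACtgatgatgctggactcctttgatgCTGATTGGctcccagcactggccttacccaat
H2-DMb1 (chr17:34153071-34153160, plus strand, GRCm38.p6): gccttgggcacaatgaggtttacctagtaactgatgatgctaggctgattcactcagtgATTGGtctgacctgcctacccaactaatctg
H2-DMb2 (chr17:34145129-34145218, plus strand, GRCm38.p6): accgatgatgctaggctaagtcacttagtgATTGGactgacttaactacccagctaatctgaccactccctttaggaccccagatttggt
H2-Oa (chr17:34092259-34092348, plus strand, GRCm38.p6): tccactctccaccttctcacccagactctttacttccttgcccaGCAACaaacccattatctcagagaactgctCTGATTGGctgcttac
H2-Ob (chr17:34238785-34238874, plus strand, GRCm38.p6): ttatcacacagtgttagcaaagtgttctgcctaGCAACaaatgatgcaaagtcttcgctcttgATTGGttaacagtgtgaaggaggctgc

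The Y box core ATTGG stood on the gene strand between bases -100 and -40 in these 6 stretches, which were picked for holding it, starting at -48 in H2-Aa, -59 in H2-Eb1, -61 in H2-DMb1, -90 in H2-DMb2, -43 in H2-Oa and -57 in H2-Ob. It stood there in 6 of the 8 member windows. Of the windows of H2-DMa, 1 held no ATTGG and the other held it only at -198. Of all 32851 promoter windows, 7.71% hold it there, and 37.4% hold it anywhere on either strand. CTGATTGG, which contains it, was found in 3 of the 8 member windows and in 4.10% of all windows. GCAAC lay upstream of the Y box in H2-Aa, H2-Eb1, H2-Oa and H2-Ob (4.33% of all windows hold it on the gene strand between -100 and -40, and 35.2% anywhere on either strand). From the start of GCAAC to the start of ATTGG there were 33 bases in H2-Aa and H2-Oa, 32 in H2-Eb1 and 30 in H2-Ob. The motifs and the interval were chosen with the sequences in view, and a match is a description of letters, not a measured binding site.

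**Figure D1:**
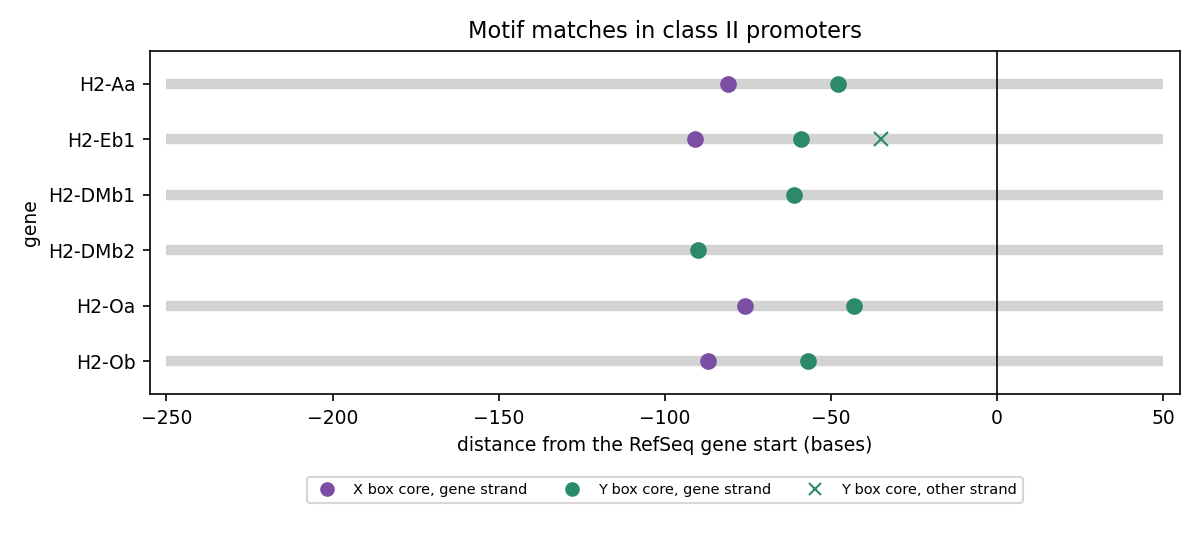
Positions of motif matches in the promoter windows of 6 class II genes, in bases from the RefSeq gene start, with the window drawn as a grey bar. Circles mark starts of matches on the gene strand and the cross a match on the other strand. Only exact matches to GCAAC and ATTGG are drawn, so a box with a changed letter does not appear. Where both cores matched, the Y box core follows the X box core by 30 to 33 bases.

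Class II RNA was abundant in every library, and libraries of the same genotype differed widely. Levels are given in FPKM, which scales fragment counts by transcript length and by library size, so that genes can be compared. Where 3 values of a group are listed, they stand in the order of replicates 1, 2 and 3. The 10 members together took 1.39%, 0.949% and 1.0% of the summed FPKM of floxed replicates 1, 2 and 3, and 0.461%, 0.648% and 1.03% of that of knockout replicates 1, 2 and 3. Floxed replicate 1 was the highest of the 6 libraries for 10 of 10 members, against 34.2% of the 13390 genes tested. Knockout replicate 1 was the lowest for 9 of 10, against 44.3% of the genes tested.

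Differences between the genotypes were tested with limma over those 13390 genes, which had at least 1 FPKM in at least 3 libraries. All 10 members passed this filter. Log2 fold changes are knockout minus floxed on the log2(FPKM + 1) scale, which understates changes of low genes, and p-values were adjusted over all genes tested by the Benjamini-Hochberg method. None of the 10 members passed an adjusted p of 0.05, which 0.0672% of genes did (9 genes). At an unadjusted limma p under 0.05, 2 of 10 were lower and none higher, against 16.3% of genes lower. The fold change was below 0 for 10 of 10 members, as it was for 65.4% of genes, with a median of -0.54 over the members and -0.12 over all genes tested. These libraries are bulk tissue, so fewer class II cells and less RNA per cell cannot be told apart.

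Libraries that stood apart bear on every value below. Abl1 itself read 18.2, 15.9 and 17.3 FPKM across the floxed libraries and 10.5, 14.5 and 12.9 FPKM across the knockouts (limma adjusted p = 0.144). Tubule markers checked the tissue label: Umod, the uromodulin of the thick ascending limb, read 434 to 581 FPKM in floxed and 608 to 929 FPKM in knockout libraries. In the summed tubule, macrophage, dendritic cell and general leukocyte markers, knockout replicate 3 lay nearer to the floxed libraries than the other knockouts did. In Abl1 it did not, and a distance over all genes was not computed. The proximal tubule phosphate transporter Slc34a1, for example, read 251 to 399 FPKM in floxed libraries, 1563 and 1464 in knockout replicates 1 and 2, and 325 FPKM in knockout replicate 3. Floxed replicate 1 differed from the other floxed libraries in lymphocyte genes, with values given further down.

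The invariant chain Cd74 was the most abundant member. It read 2387, 1869 and 1920 FPKM across the floxed libraries and 936, 1232 and 1998 FPKM across the knockouts. Knockout replicates 1 and 2 lay below all floxed libraries, while knockout replicate 3 lay inside the floxed range. Among all genes, Cd74 ranked 8th to 13th in the floxed libraries and 49th, 25th and 10th in knockout replicates 1, 2 and 3. Its mean was 2059 ± 286 FPKM for floxed against 1389 ± 548 FPKM for knockout kidneys (SD, n = 3 each), a log2 fold change of -0.63 (SE 0.307, limma adjusted p = 0.248).

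H2-Aa is the alpha chain of the I-A molecule, and its knockout replicates 1 and 2 also lay below all floxed libraries. Its values were 1700.1, 1119 and 1164 FPKM across the floxed libraries and 504, 733 and 1138 FPKM across the knockouts. Knockout replicate 3 again fell within the floxed range, and the mean was 1328 ± 323 FPKM in floxed against 792 ± 321 FPKM in knockout kidneys (SD, n = 3 each, log2 fold change -0.80, SE 0.330, limma unadjusted p = 0.0466, adjusted p = 0.198). H2-Ab1, the beta chain that pairs with it, read 1505, 983.5 and 971 FPKM across the floxed libraries and 612, 721 and 1056 FPKM across the knockouts, with overlapping groups (log2 fold change -0.54, SE 0.278, adjusted p = 0.265).

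H2-Eb1, the beta chain of the I-E molecule, was the 1 member of 10 whose groups did not overlap, against 21.7% of genes tested that were lower in knockout without overlap. It read 1023, 659 and 661 FPKM across the floxed libraries and 318, 460 and 631 FPKM across the knockouts. Knockout replicate 3 lay just under the lowest floxed library. The log2 fold change was -0.76 (SE 0.298, limma unadjusted p = 0.0391, adjusted p = 0.183). C57BL/6 mice carry a defective gene for the partner alpha chain, and that pseudogene, H2-Ea-ps, was listed at 0 FPKM in 5 libraries and at 0.05 FPKM in knockout replicate 1. H2-Ea-ps and H2-Eb2, used here as well, are not members and were named after their values were seen.

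Among the classical chains, H2-Eb1 and H2-Aa kept the steadiest proportion. H2-Eb1 stood at 0.602, 0.589 and 0.568 of H2-Aa in floxed and at 0.632, 0.627 and 0.554 in knockout replicates 1, 2 and 3. Cd74 stood at 1.40, 1.67 and 1.65 times H2-Aa in floxed and 1.86, 1.68 and 1.76 times in knockout replicates 1, 2 and 3. H2-Aa relative to H2-Ab1 was 1.13, 1.14 and 1.20 in floxed and 0.823, 1.02 and 1.08 across the knockouts. The groups did not overlap in this ratio, but knockout replicate 3 (1.08) lay close to floxed replicate 1 (1.13). These ratios were chosen with the values in view and were not tested, and the share of all gene ratios without overlap was not computed.

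**Figure D2:**
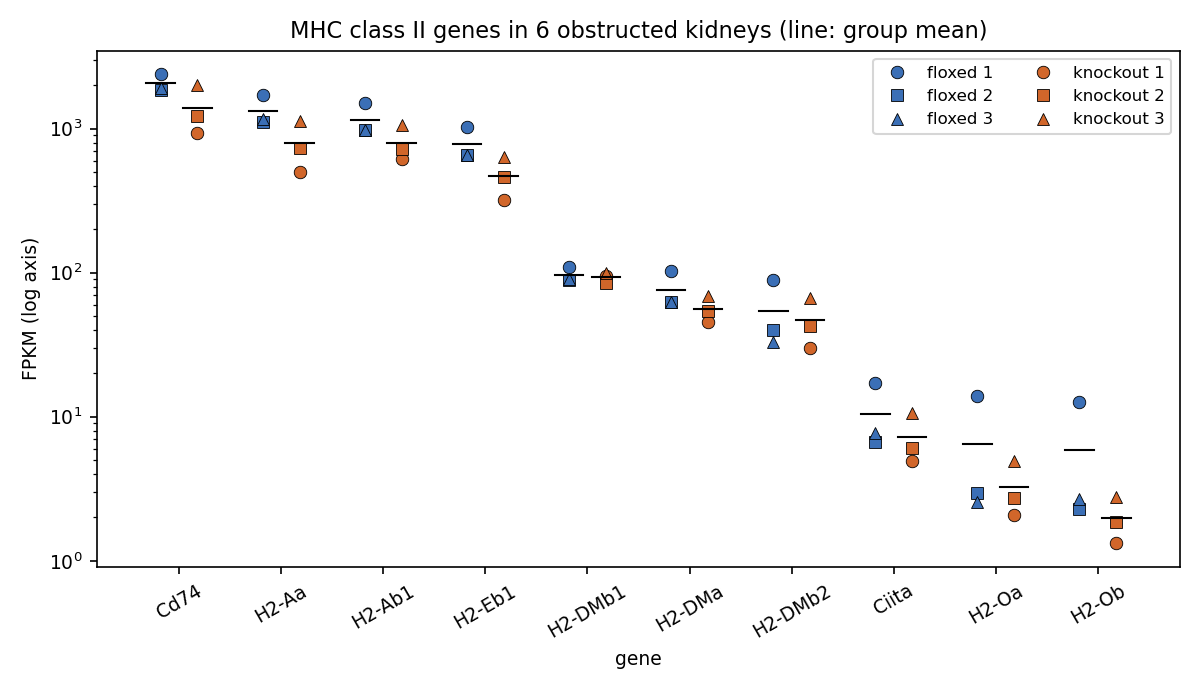
FPKM of the 10 class II genes on a log axis, ordered by their floxed mean, with 1 symbol per library (floxed blue, knockout orange, shape for replicate number) and a line at each group mean. Floxed replicate 1 is the highest library for every gene, most clearly for H2-Oa and H2-Ob, while H2-DMb1 stays between 85.5 and 109 FPKM.

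The peptide editor H2-DM is a heterodimer of H2-DMa with H2-DMb1 or H2-DMb2, and its chains did not vary alike. H2-DMa read 103, 63.0 and 62.2 FPKM across the floxed libraries and 45.2, 54.6 and 69.1 FPKM across the knockouts, with overlapping groups (log2 fold change -0.41, SE 0.242, limma adjusted p = 0.324). H2-DMb1 was the steadiest member. It read 109, 88.5 and 90.2 FPKM across the floxed libraries and 94.7, 85.5 and 99.7 FPKM across the knockouts, a log2 fold change of -0.04 (SE 0.132, adjusted p = 0.871), which turned to 0.12 with median-ratio scaling, and its SD over the 6 libraries was 0.13 on the log2 scale against 0.39 to 0.91 for the other 9 members. Relative to H2-DMa it stood at 1.06, 1.41 and 1.45 in floxed and at 2.09, 1.57 and 1.44 in knockout replicates 1, 2 and 3.

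H2-DMb2 varied more than its neighbour. It read 89.0, 39.9 and 33.3 FPKM across the floxed libraries and 29.98, 42.8 and 67.2 FPKM across the knockouts, so the high libraries were floxed replicate 1 and knockout replicate 3 (log2 fold change -0.15, SE 0.421, limma adjusted p = 0.840, and 0.01 with median-ratio scaling). H2-DMb1 and H2-DMb2 are close copies. Of the 50-base stretches of the longest protein-coding H2-DMb1 transcript, 27.2% also occur in some H2-DMb2 transcript (GENCODE M21), whereas no other pair of members shared any. How the authors assigned fragments that match both is not given in the sources used here, so the split between these genes is uncertain.

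H2-Oa and H2-Ob, the chains of the H2-DM inhibitor H2-O, were low except in 1 library. H2-Oa read 13.9, 2.94 and 2.55 FPKM across the floxed libraries and 2.09, 2.74 and 4.94 FPKM across the knockouts, and H2-Ob read 12.7, 2.28 and 2.68 against 1.32, 1.87 and 2.75 FPKM. Floxed replicate 1 stood 5.07-fold and 5.13-fold above the mean of the other floxed libraries, while the rest of the libraries spanned 2.09 to 4.94 and 1.32 to 2.75 FPKM. At the roughly estimated depth the lowest values correspond to about 38 fragments of H2-Oa and 59 of H2-Ob. The log2 fold changes were -0.53 (SE 0.561, limma adjusted p = 0.562) for H2-Oa and -0.91 (SE 0.539, adjusted p = 0.323) for H2-Ob, and without floxed replicate 1 they were 0.13 and -0.25. H2-Oa relative to H2-Ob was 1.10, 1.29 and 0.951 in floxed and 1.58, 1.47 and 1.80 in knockout replicates 1, 2 and 3. This ratio did not overlap between the groups either and was not tested. H2-Eb2, a class II beta chain gene beside H2-Eb1, had the same high library, at 4.03, 0.75 and 0.71 FPKM across the floxed libraries and 0.47, 0.78 and 1.35 FPKM across the knockouts.

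Ciita, the transactivator, followed that pattern more weakly. It read 17.1, 6.68 and 7.75 FPKM across the floxed libraries and 4.96, 6.06 and 10.6 FPKM across the knockouts. Floxed replicate 1 was 2.37-fold above the mean of the other floxed libraries, and knockout replicate 3 lay above floxed replicates 2 and 3. The log2 fold change was -0.44 (SE 0.379, limma adjusted p = 0.481), and -0.06 without floxed replicate 1.

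In order of mean floxed level the members ran Cd74, H2-Aa, H2-Ab1, H2-Eb1, H2-DMb1, H2-DMa, H2-DMb2, Ciita, H2-Oa and H2-Ob. The wide step lay between H2-Eb1, at 781 ± 209 FPKM, and H2-DMb1, at 96.1 ± 11.6 FPKM (SD, n = 3 floxed libraries each). The means of H2-Aa and H2-Ab1 were 1328 ± 323 and 1153 ± 305 FPKM, and H2-Aa was the higher in each floxed library (1.13, 1.14 and 1.20 times H2-Ab1). Those of H2-DMa and H2-DMb2 were 76.0 ± 23.3 and 54.0 ± 30.5 FPKM. H2-DMa was the higher in each floxed library, at 103, 63.0 and 62.2 against 89.0, 39.9 and 33.3 FPKM. H2-Oa and H2-Ob, at 6.47 ± 6.45 and 5.89 ± 5.91 FPKM, kept no fixed order (H2-Oa at 1.10, 1.29 and 0.951 times H2-Ob). These SDs include the high values of floxed replicate 1, which the genes share.

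Lymphocyte markers moved with the high values of floxed replicate 1. The B cell marker list, 8 genes summed, read 99.5, 8.41 and 7.93 FPKM across the floxed libraries and 8.37, 23.8 and 20.1 FPKM across the knockouts. Ms4a1, which encodes CD20, stood at 3.44 FPKM in floxed replicate 1 and at 0.08 to 0.38 elsewhere, and the antigen receptor chain Cd79a at 54.7 FPKM and 1.54 to 12.4 elsewhere. The 8 T cell markers summed to 129, 33.0 and 30.9 FPKM across the floxed libraries and 37.3, 28.6 and 38.9 FPKM across the knockouts, with the T cell receptor subunits Cd3e, Cd3d and Cd3g at 10.6, 19.4 and 35.7 FPKM in floxed replicate 1 against 1.76 to 3.84, 3.98 to 5.05 and 6.88 to 10.7 elsewhere. None of the 3 B cell and 7 T cell markers tested had an unadjusted limma p under 0.05, and no B or T cell marker was at 0 in any library. The part of lymphocyte content in the class II values was not tested.

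Members differed in how far they followed that library. Floxed replicate 1 exceeded the mean of the other floxed libraries 1.22-fold for H2-DMb1, 1.26-fold for Cd74, 1.49-fold to 1.64-fold for H2-Aa, H2-Ab1, H2-Eb1 and H2-DMa, and 2.43-fold for H2-DMb2. The excess over all genes tested had a median of 1.06-fold, and that of the macrophage gene Adgre1 was 0.677-fold. For the 3 B cell markers tested it was 33.9-fold (Cd79a), 8.15-fold (Fcrla) and 5.05-fold (Cd79b). Ms4a1, which did not pass the filter, stood at 20.2-fold over only 0.16 and 0.18 FPKM in floxed replicates 2 and 3. Without floxed replicate 1, no member was lower at an unadjusted limma p under 0.05 (11.8% of genes were). Of the 10 members 7 stayed below 0, with a median of -0.21 against -0.08 over all genes. The share of genes below 0 was 65.4% with all 6 libraries and was not computed for this fit. H2-DMb1, H2-DMb2 and H2-Oa were then above 0.

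Summed myeloid markers lay below all floxed libraries in every knockout library. The 12 macrophage markers summed to 1915, 2702 and 2522 FPKM across the floxed libraries and 785, 902 and 1580 FPKM across the knockouts. Of these 12, 10 were lower at an unadjusted limma p under 0.05, against 16.3% of genes, and none passed after adjustment. Cd14 was the 1 marker of the list above 0 (log2 fold change 0.31). The sum weights genes by their level: Lyz2 alone averaged 1220 of 2380 FPKM in floxed and 449 of 1089 FPKM in knockout libraries. Adgre1, which encodes F4/80, read 17.0, 25.8 and 24.5 FPKM across the floxed libraries and 9.80, 9.45 and 12.4 FPKM across the knockouts (adjusted p = 0.0627). The receptor Csf1r and the lysosomal Cd68 had log2 fold changes of -0.76 and -1.20 (adjusted p = 0.107 and 0.0929).

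The 10 dendritic cell markers summed to 101, 61.9 and 65.8 FPKM across the floxed libraries and 23.1, 33.9 and 47.4 FPKM across the knockouts, and of the 9 tested 8 were lower at an unadjusted p under 0.05 (16.3% of genes were), none after adjustment. Flt3, a growth factor receptor of dendritic cells, read 4.02, 2.53 and 2.44 FPKM across the floxed libraries and 1.12, 1.29 and 1.99 FPKM across the knockouts, without overlap. Zbtb46, a transcription factor of classical dendritic cells, and the integrin Itgax had log2 fold changes of -0.65 and -1.16 (limma adjusted p = 0.182 and 0.0986). The 4 general leukocyte genes, Ptprc, Cd53, Laptm5 and Coro1a, summed to 342, 257 and 223 FPKM across the floxed libraries and 105, 121 and 193 FPKM across the knockouts. Among them Ptprc, the common leukocyte antigen CD45, read 54.0, 32.5 and 28.7 FPKM across the floxed libraries and 13.9, 17.5 and 22.2 FPKM across the knockouts (adjusted p = 0.0952), Cd53 had a log2 fold change of -1.20 and Laptm5 of -0.92. The 6 endothelial markers, with Pecam1, Cdh5 and Kdr at log2 fold changes of -0.51, -0.46 and -0.29, summed to 86.2 to 162 FPKM in floxed and 80.7 to 95.5 FPKM in knockout libraries, and 1 of 6 was lower at an unadjusted limma p under 0.05, against 16.3% of genes. The 8 tubule markers summed to 1191 to 1427 FPKM in floxed and 1453 to 3529 FPKM in knockout libraries, among them the endocytic receptor Lrp2 at a log2 fold change of 0.92, and 5 of 8 were higher at an unadjusted limma p under 0.05, against 8.38% of genes, none after adjustment. Pax8 was the 1 tubule marker below 0 (log2 fold change -0.09). No marker of these lists was at 0 in any library, and their part in the class II values was not tested.

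**Figure D3:**
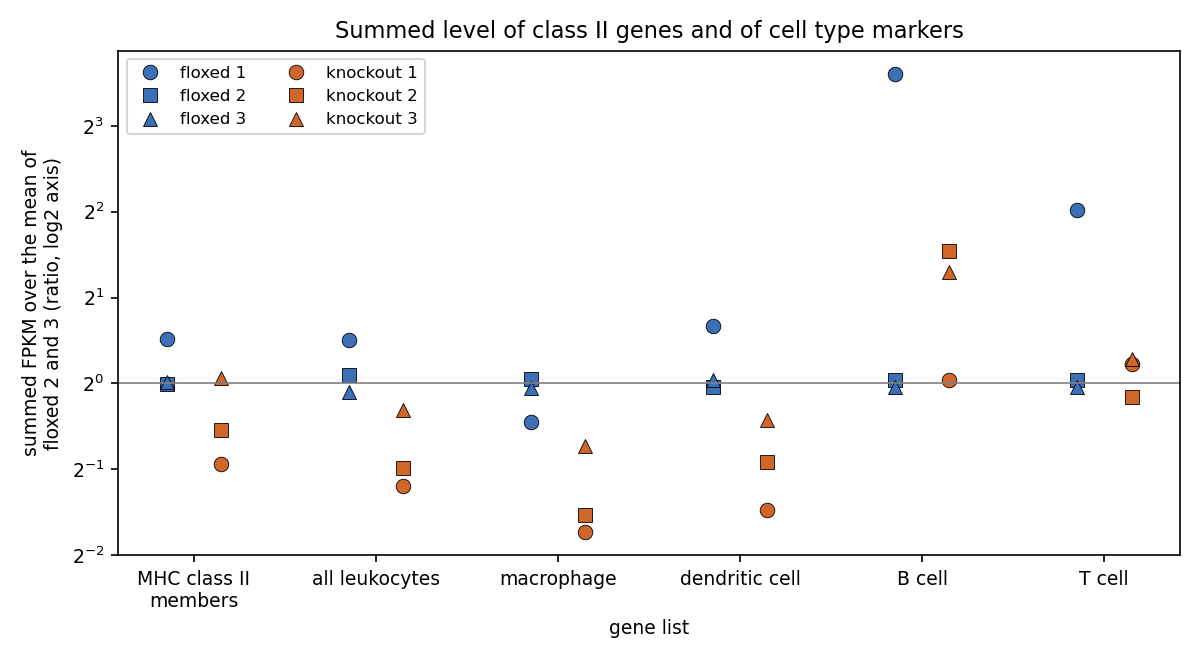
Summed FPKM of the 10 class II genes and of 5 marker lists in each library, as a ratio to the mean of floxed replicates 2 and 3 (log2 axis, floxed blue, knockout orange, shape for replicate number). Macrophage and dendritic cell sums lie below the floxed libraries in all 3 knockout libraries, whereas the class II sum of knockout replicate 3 lies between those of the floxed libraries and the B cell sum is far the highest in floxed replicate 1.

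Cd74 was therefore set against these marker sums in the same library. Per summed dendritic cell marker FPKM, Cd74 stood at 23.6, 30.2 and 29.2 in floxed and at 40.6, 36.3 and 42.2 in knockout replicates 1, 2 and 3, higher in 3 of 3 knockout libraries (log2 difference 0.53, two-sided exact permutation p = 0.1). Per general leukocyte marker FPKM it stood at 6.99, 7.28 and 8.60 in floxed and 8.93, 10.2 and 10.3 in knockout replicates 1, 2 and 3 (log2 difference 0.37, exact p = 0.1). Per macrophage marker FPKM, a sum of which Lyz2 was the largest part, it stood at 1.25, 0.692 and 0.761 in floxed replicates 1, 2 and 3. In knockout replicates 1, 2 and 3 it stood at 1.19, 1.37 and 1.27, with overlap through floxed replicate 1 (log2 difference 0.55, exact permutation p = 0.2). Adjusted over these 3 comparisons the exact permutation p-values were 0.15, 0.15 and 0.2, and 0.1 is the smallest that 3 against 3 libraries allow, so none could pass 0.05. With 1 library left out in turn, the log2 difference ranged from 0.39 (without floxed replicate 2) to 0.81 (without floxed replicate 1) for macrophage, from 0.42 (without floxed replicate 1) to 0.59 for dendritic cell and from 0.31 (without floxed replicate 1) to 0.46 for general leukocyte markers.

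Leaving out knockout replicate 3, the knockout library nearest to the floxed group in summed class II FPKM, changed the calls. Without knockout replicate 3, 3 of 10 members passed an adjusted limma p of 0.05 as lower, against 15.4% of genes: Cd74 (log2 fold change -0.93, adjusted p = 0.0216), H2-Aa (-1.10, adjusted p = 0.0281) and H2-Eb1 (-0.996, adjusted p = 0.0391). H2-Ab1 came next at -0.76 (adjusted p = 0.0579). Array weights, which let limma give discordant libraries less weight, called the same 3 members, at -0.65, -0.71 and -0.61 (adjusted p = 0.0242, 0.0242 and 0.0313), against 22.4% of genes lower. With floxed replicate 1 and knockout replicate 3 both left out, an alternative chosen after the values were seen, 4 of 10 passed, these 3 and H2-Ab1 (adjusted p = 0.0494), against 13.5% of genes lower. Leaving out the knockout library that was nearest to the floxed group for these 4 genes widens their difference by construction. With array weights the differences of H2-Aa and H2-Eb1 were smaller than with equal weights, and their standard errors were smaller too. None of these counts is added support. In none of these 3 fits did H2-DMa, H2-DMb1, H2-DMb2, H2-Oa, H2-Ob or Ciita pass.

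**Figure D4:**
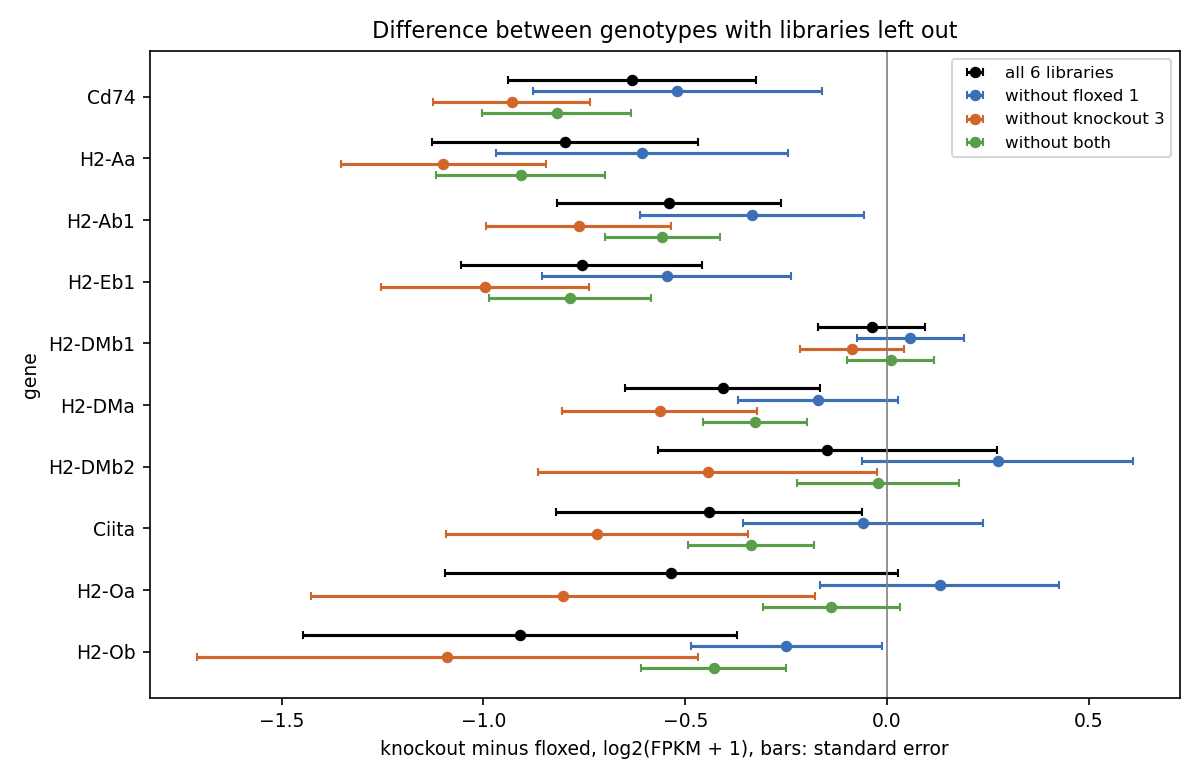
Log2 fold change, knockout minus floxed, of each class II gene on the log2(FPKM + 1) scale, with bars for the standard error, using all 6 libraries and with 1 or both of floxed replicate 1 and knockout replicate 3 left out. Cd74, H2-Aa, H2-Ab1 and H2-Eb1 lie below 0 in all 4 fits, whereas H2-DMb1 lies between -0.09 and 0.06 and H2-DMb2 and H2-Oa change sign.

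Genes that act beside the class II molecules were followed through lists of related genes. None of their members passed an adjusted limma p of 0.05, so those named are given by value. Of 9 genes of peptide processing and class II turnover, 3 were lower and 2 higher at an unadjusted p under 0.05, against 16.3% of genes lower and 8.38% higher, with a median log2 fold change of -0.09 against -0.12 over all genes. Cathepsin S (Ctss), the protease that trims the invariant chain in antigen-presenting cells, read 370, 401 and 339 FPKM across the floxed libraries and 108, 157 and 257 FPKM across the knockouts (adjusted p = 0.0939). All 3 knockout libraries lay below the floxed ones. The thiol reductase Ifi30 read 177, 150.03 and 144 against 102, 109 and 139 FPKM, and Marchf1, a ubiquitin ligase that removes class II from the surface, 5.82, 7.87 and 6.12 against 3.03, 3.81 and 5.63 FPKM. Legumain (Lgmn), an endosomal protease that is also abundant in proximal tubule, went the other way at 251, 357 and 289 against 645, 395 and 400.0 FPKM, as did Marchf8 at 24.9, 27.9 and 29.7 against 34.6, 33.4 and 36.1 FPKM. The broadly expressed cathepsins Ctsl, Ctsb and Ctsd had log2 fold changes of -0.08, -0.09 and 0.08.

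Of 14 transcription factors of class II genes, 5 were lower at an unadjusted limma p under 0.05, against 16.3% of genes, and none higher, with a median of -0.43. The factors known to bind X and Y boxes were divided. Nfya, a subunit of the Y box factor NF-Y, read 17.8, 21.98 and 22.8 FPKM across the floxed libraries and 9.50, 14.4 and 16.0 FPKM across the knockouts (adjusted p = 0.133), while its partners Nfyb and Nfyc had log2 fold changes of -0.23 and 0.23. The X box factors Rfx5, Rfxap and Rfxank had log2 fold changes of -0.17, -0.11 and 0.03, with Rfx5 at 19.4 FPKM in floxed replicate 1 and 9.92 to 14.6 FPKM in the others. Creb1 read 13.0, 12.6 and 13.3 against 6.62, 9.71 and 11.4 FPKM (adjusted p = 0.186).

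Factors found mainly in leukocytes made up the other 3. Spi1 (PU.1), the myeloid and B cell regulator, read 31.5, 33.4 and 34.2 FPKM across the floxed libraries and 11.5, 15.5 and 25.2 FPKM across the knockouts (limma adjusted p = 0.0994). Its relative Spib read 5.69, 3.74 and 2.64 against 1.05, 1.02 and 1.56 FPKM (adjusted p = 0.0719), and Irf8 34.6, 22.2 and 29.6 against 14.0, 13.0 and 24.3 FPKM with overlap.

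Ifng, the cytokine that induces Ciita, stayed at or below 0.90 FPKM in every library, was at 0 in knockout replicate 2 and was not tested. Of the other 8 genes of the interferon-gamma receptor pathway, 3 were lower at an unadjusted limma p under 0.05, against 16.3% of genes, with a median of -0.50. The kinase Jak2 read 19.2, 22.04 and 19.7 FPKM across the floxed libraries and 12.1, 11.9 and 18.2 FPKM across the knockouts, and the feedback inhibitor Socs1 8.56, 5.39 and 5.41 against 3.27, 2.14 and 4.22 FPKM. Irf2 had a log2 fold change of -0.41. Irf1, an interferon-induced transcription factor that stands in the list of transcription factors too, was highest in floxed replicate 1, at 76.3 FPKM, and overlapped between the groups.

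The costimulatory and coinhibitory ligands that accompany class II on antigen-presenting cells showed 3 of 5 tested genes lower at an unadjusted limma p under 0.05. This compares with 16.3% of genes, and the median was -0.69. Cd86 read 9.86, 10.2 and 11.0 FPKM across the floxed libraries and 3.56, 5.13 and 7.05 FPKM across the knockouts (adjusted p = 0.0839). Cd80 read 2.44, 2.39 and 1.41 against 0.57, 0.39 and 1.18 FPKM, and Icosl 22.4, 15.4 and 16.2 against 7.33, 11.1 and 14.4 FPKM. None of these 3 overlapped between the groups, as was so for 21.7% of genes on the lower side. Of 5 coreceptors and Cd74 ligands, 1 was lower and 2 higher at an unadjusted limma p under 0.05, against 16.3% and 8.38% of genes. Cd4, the T cell coreceptor that binds class II, read 14.1, 5.2 and 5.17 against 1.97, 2.63 and 2.53 FPKM (adjusted p = 0.101). Mif, a ligand of surface Cd74, and its homologue Ddt were on the other side, Mif at 149, 162 and 134 against 276, 276 and 158 FPKM and Ddt at 42.1, 55.9 and 48.6 against 154, 95.4 and 52.6 FPKM, both with overlap through knockout replicate 3 (adjusted p = 0.169 and 0.185).

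Genes with the most similar pattern over the 6 libraries were sought by the root mean square difference between each gene's centred log2(FPKM + 1) values and the mean profile of the 10 members, among 10266 other genes with a mean of at least 5 FPKM. The 6 nearest were Traf1, Pqlc3, H2-M3, H2-T-ps, Glipr1 and Uba7, at 0.079 to 0.106 on the log2 scale. For comparison, the members themselves lay 0.105 (Ciita) to 0.399 (H2-Ob) from their own mean profile. Traf1 read 27.1, 11.3 and 12.1 FPKM across the floxed libraries and 7.32, 9.63 and 14.1 FPKM across the knockouts. H2-M3, a nonclassical class I gene, read 21.7, 12.1 and 11.6 against 7.83, 8.36 and 12.3 FPKM. In each of the 6, floxed replicate 1 was the highest library and knockout replicate 1 the lowest. The mean profile they were picked to match has the same highest and lowest library, so this follows from the choice.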

How the data were processed

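The deposited data are 1 table of FPKM per gene and library with 2 decimals; the file headers name the unit. The submitters' processing notes name the mm9 build. Nothing used here states the aligner, counting tool, annotation, strand use or filters. RNA was extracted with TRIzol and libraries followed an Illumina protocol, per the labels' protocols. Groups and replicate numbers came from the sample titles. The table carries no read totals. The spacing of low values of single-transcript genes gave only a rough depth of 16150000 to 18450000 fragments per library, with 52.2% to 63.9% of those values within 0.2 of a whole fragment.

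Symbols that had become dates (26) were restored through Entrez identifiers. Genes with at least 1 FPKM in at least 3 libraries were compared on log2(FPKM + 1) in limma 3.58.1 (R 4.3.3). The model held only the group, variances followed a trend on mean level, tests were two-sided, and p-values were adjusted by Benjamini-Hochberg over 13390 genes. The limma code was tested on simulated data with the same noise in every gene and library. That test does not show how the fit handles libraries that stand apart. Exact permutation tests compared Cd74 with marker sums. Python 3.11.15 with pandas 2.3.3 and biopython 1.88 handled tables and sequences. Promoters came from RefSeq (GRCm38.p6), transcripts from GENCODE M21.

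The members and all lists were chosen with earlier results of these data known. The text names all 10 members; of each pathway list the genes at an unadjusted p under 0.05; of each marker list the first 3 genes; and the 6 genes most alike in pattern. Some genes under this rule are not reported here. Further list genes were named after their values were seen. Alternatives were another pseudocount, no filter (genes at 0 in all libraries dropped), median-ratio and TPM scaling, no trend, array weights, the replicate number as a block, and each library left out.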

Additional observations from a re-analysis of the deposited data

How the results depend on the processing

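The count of genes past the limma threshold was 9 with all libraries and 10 with TPM scaling. It was 1 with a pseudocount of 0.1, with no filter, with median-ratio scaling or without the trend, 4873 with array weights, and 0 to 3271 when 1 library was left out (13 without floxed replicate 1, 0 without floxed replicate 2 or 3, 2 without knockout replicate 1, 1 without knockout replicate 2, 3271 without knockout replicate 3). With floxed replicate 1 and knockout replicate 3 both left out it was 3006. The count of class II genes past it was 0, and 3 with array weights, 4 without those 2 libraries, and 0 to 3 with 1 library left out. At an unadjusted limma p under 0.05, 2 class II genes were lower, 0 with no filter and 1 with median-ratio scaling. The count was 4 with array weights, 4 without both libraries and 0 to 4 with 1 left out. Genes with such a p in either direction numbered 3303 of 13390 with all libraries and 3866 of 18660 with no filter. Of 13390, they numbered 3327 with median-ratio scaling, 6318 with array weights, 5288 without both libraries and 2054 to 5424 with 1 left out. Median-ratio scaling moved the median of all genes from -0.12 to 0.02. H2-DMb1 changed sign with that scaling (0.12), without floxed replicate 1 (0.058), without knockout replicate 2 (0.023) and without both libraries (0.0095). H2-DMb2 did so with that scaling (0.0092), with array weights (0.077), without floxed replicate 1 (0.27) and without knockout replicate 1 (0.13), and H2-Oa without floxed replicate 1 (0.13). With 1 library left out, H2-DMb1 ranged from -0.093 to 0.058, H2-DMb2 from -0.44 to 0.27 and H2-Oa from -0.90 to 0.13. The cause of these changes was not tested. For the other 7 members every alternative kept the sign.

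With the replicate number as a block, 2 genes and 0 class II genes passed. At an unadjusted limma p under 0.05, 0 class II genes were lower, and 2818 of 13390 genes had such a p in either direction. The values gave no sign that the numbers pair the samples. Deviations from the group means correlated at -0.13, -0.07 and 0.03 for numbers 1, 2 and 3. No floxed library correlated best with its own number, and of the knockouts only replicate 3 did. With 3 libraries per group, such correlations cannot show that the samples were not paired. Values near 2 FPKM, as for H2-Oa and H2-Ob, rest on few fragments.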
